A study of Mus musculus with 4 samples.

Results

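Neurons of the mouse ventromedial prefrontal cortex (vmPFC) that carried both the mediodorsal thalamus (MD) and the lateral hypothalamus (LH) virus barcode were examined. They were chosen by their own barcode counts, as excitatory neurons with at least 115 MD barcode UMIs and at least 104 LH barcode UMIs, the lowest counts at which the annotation calls these barcodes valid. A UMI is a random tag that marks one captured molecule. Of 8210 excitatory neurons with a subtype annotation, 88 met both limits, which is 1.07% (95% exact binomial interval 0.861 to 1.32%, counting error only). MD and LH barcode counts and every measure built on them are therefore given as a description with no test, and tests were made on subtype and on transcriptome depth. Valid calls of the other barcodes come from the same barcode libraries and share UMIs with MD and LH, so they are described without a test.

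In the study (MERGE-seq), each of 5 brain regions received a retrograde rAAV2-retro-EGFP virus with its own barcode, so that a barcode read in a vmPFC neuron is meant to name a region its axon reaches. The regions were the agranular insular cortex (AI), the dorsomedial striatum (DMS), the basolateral amygdala (BLA), MD and LH, and all animals were male C57BL/6 mice that received all 5 viruses on one side of the brain at 8 weeks of age, several weeks before their cells were collected. Cells of 3 mice were sequenced unsorted, 1 library per mouse, and EGFP-positive cells of 3 further mice were pooled after fluorescence-activated cell sorting (FAC-sorted) into 1 library. No uninjected animals were analysed here, and the sorted pool has no replicate.

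MD is the thalamic nucleus most closely tied to the prefrontal cortex, and it exchanges signals with it in both directions. LH is a hypothalamic area known for its part in feeding, arousal and motivated behaviour. Corticothalamic neurons of layer 6 are the classical cortical input to thalamus, whereas thick-tufted layer 5 neurons send axons to subcortical targets that can include thalamus, hypothalamus and brainstem.

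The barcodes that decide membership are shown 5′ to 3′, because their distance bears on whether a read of one could be counted as the other. Capitals mark the 13 of 15 positions at which the MD and LH barcodes hold different bases.
MD: GTtGGCTGCAaTCCA
LH: TAtTCGGAGGaCGAC
The remaining barcodes, which define further labels of the same neurons, are given in lower case.
AI: ctgcaccgacgcatt
DMS: gaaggcacagacttt
BLA: aagacgccgtcgcaa
Reads were assigned with at most 2 mismatches. The barcode closest to MD was DMS, with 10 differing positions, and the barcode closest to LH was BLA, also with 10. Of the assigned reads, 98.1% for MD and 98.5% for LH matched without a mismatch.

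The neurons were spread unevenly over the libraries. Unsorted mouse 1 gave 4 of them, unsorted mouse 2 gave 7 and unsorted mouse 3 gave 12, or 0.352% ± 0.202 (SD, n = 3) of the excitatory neurons of a mouse. The FAC-sorted library gave 65 of 1505, or 4.32% (3.35 to 5.47%). Barcode reads per recovered cell were 2542, 4115 and 4544 in the unsorted libraries and 14639 in the FAC-sorted library, and sorting and reads per recovered cell differed together. Reads per neuron lay closer together in neurons with MD as their only valid barcode. Those neurons had a median of 9541, 13413.5 and 12988 barcode reads in unsorted mice 1 to 3 and 13695 after sorting. In neurons with both barcodes the medians were 13966, 19325 and 19242.5 in unsorted mice 1 to 3 and 34513 after sorting. The upper cutoff on barcode UMIs per cell differed too, at 404 to 529 UMIs in the unsorted libraries and 1012 after sorting. Before that cutoff, among cells of any type, both barcodes were valid in 2.01, 2.68 and 3.19% of cells in unsorted mice 1 to 3 and in 8.41% after sorting. The mix of cells differed between these libraries. Annotated excitatory neurons left after the cutoff were 2440 of 8042, 2146 of 7439 and 2119 of 7239 cells in unsorted mice 1 to 3. After sorting they were 1505 of 2068, so these percentages do not compare neurons with neurons. With barcode reads thinned to equal depth per recovered cell and the limits kept, 11 neurons met both limits, of which 3 were FAC-sorted and 4, 2 and 2 came from unsorted mice 1 to 3. This thinning did not equalise reads per barcoded neuron, and it cut the FAC-sorted library most. With fixed limits it lowers the number of neurons by construction, so it does not compare the libraries at equal depth of barcoded neurons. Of neurons with a valid MD barcode, 8.20% ± 4.08 (SD, n = 3) in unsorted mice and 23.0% (18.3 to 28.4%) after sorting also had LH. Among all excitatory neurons of unsorted mice, LH was valid in 2.70% ± 0.00808 (SD, n = 3). Of neurons with a valid LH barcode, 13.1% ± 7.55 (SD, n = 3) and 42.5% (34.5 to 50.7%) also had MD. Among all excitatory neurons of unsorted mice, MD was valid in 4.22% ± 1.19 (SD, n = 3). These shares of all excitatory neurons cover unsorted mice only and are no base for the FAC-sorted values of 23.0 and 42.5%. In the largest subtype, L6-Syt6, 226 of 739 FAC-sorted neurons had valid MD and 122 had valid LH. Both were valid in 54, beside 37.3 from the product of these 2 shares. Valid MD was found in 71 of 1426, 109 of 1354 and 88 of 1300 L6-Syt6 neurons of unsorted mice 1 to 3. Valid LH was found in 42, 44 and 47 of them. In unsorted mice 1 to 3 both were valid in 3, 7 and 11 L6-Syt6 neurons, beside 2.09, 3.54 and 3.18. No test was made of this, since the same calls chose the neurons. A UMI found with both barcodes counts for each, and the cutoff removed most cells with both. The difference from the product therefore cannot be interpreted.

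Most of the neurons belonged to L6-Syt6, the layer 6 subtype named for Syt6, a synaptotagmin gene. It held 75 of the 88, or 85.2% (76.1 to 91.9%), with 3 of 4, 7 of 7 and 11 of 12 in unsorted mice 1 to 3 and 54 of 65 after sorting. L6-Syt6 made up 58.7% of all 8210 excitatory neurons, 61.0% ± 2.35 (SD, n = 3) in unsorted mice and 49.1% after sorting. L5-Bcl6, the layer 5 subtype named for the transcriptional repressor Bcl6, held 4, of which 1 was in unsorted mouse 1 and 3 were FAC-sorted. L5-S100b also held 4, L2/3-Rorb held 3, and L2/3-Calb1 and L6-Npy held 1 each. L5-Htr2c held 0 of its 320 neurons, a count that allows a share of at most 0.938%. Within subtypes, 1.56% (1.23 to 1.95%) of the 4819 L6-Syt6 neurons and 1.48% (0.405 to 3.75%) of the 270 L5-Bcl6 neurons carried both barcodes over all libraries. The share was 0.622% in L2/3-Rorb, 0.419% in L5-S100b, 0.299% in L2/3-Calb1 and 0.0970% in L6-Npy. The L6-Syt6 and L5-Bcl6 values were raised by the FAC-sorted library, where the shares were 7.31 and 5%, whereas in unsorted mice they were 0.525% ± 0.318 and 0.370% ± 0.642 (SD, n = 3). The other shares rested on that library as well. In unsorted mice they were 0.175% ± 0.302 (SD, n = 3) in L5-S100b and 0% in L2/3-Rorb, L2/3-Calb1 and L6-Npy. The FAC-sorted neurons of L2/3-Rorb, L2/3-Calb1 and L6-Npy with both barcodes had 805 to 985 barcode UMIs. These totals lay above the cutoff of each unsorted library, so 0% there does not show a lower share. Subtypes are those of the deposited annotation, and the expression of their marker genes was not analysed here.

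Neurons with MD as their only valid barcode were almost entirely L6-Syt6. Of these 281 neurons, 277 were L6-Syt6, or 98.6% (96.4 to 99.6%), and 4 were L5-Bcl6. Against them, the L6-Syt6 share of the MD plus LH neurons was different by -25.0, -3.89 and -16.9 percentage points in unsorted mouse 1, unsorted mouse 3 and the FAC-sorted library, and by 2.44 in unsorted mouse 2. These groups differ in more than LH, since MD alone excludes every further valid barcode and only 11 of the 88 neurons had none. The L2/3, L5-S100b and L6-Npy neurons among the 88 all had valid DMS as well. Subtype was not compared with all neurons that had MD but not LH. Pooled over libraries the difference was -13.3 percentage points, and 13 alternatives that kept its direction gave -35.0 to -4.52. It turned to 1.67 with UMIs of at least 2 reads (6 neurons) and to 1.14 with shared UMIs dropped (15 neurons). Those 6 and 15 neurons were all L6-Syt6 and all FAC-sorted, so their share was at its ceiling. The difference did not pass the test over libraries (exact two-sided sign-flip test, p = 0.25, Benjamini-Hochberg adjusted p = 0.75 over 12 tests). With 4 libraries this test cannot go below 0.13, so no comparison here could reach 0.05, and a p above it does not show that groups are alike.

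Neurons with LH as their only valid barcode held a larger L5-Bcl6 fraction. Of these 176 neurons, 138 were L6-Syt6, or 78.4% (71.6 to 84.2%), and 35 were L5-Bcl6, or 19.9% (14.3 to 26.6%). The L5-Bcl6 share of the MD plus LH neurons lay below that of the LH-only neurons in 4 of 4 libraries. It was 25.0% against 35.6% in unsorted mouse 1, 0% against 15.8% in unsorted mouse 2, 0% against 5.88% in unsorted mouse 3 and 4.62% against 13.3% in the FAC-sorted library. The mean difference was -10.2 percentage points, with the smallest p that 4 libraries allow (exact sign-flip test, p = 0.13, adjusted p = 0.75). The difference rests on 1, 0, 0 and 3 L5-Bcl6 neurons with both barcodes. The LH-only group likewise excludes every further valid barcode, whereas the MD plus LH group does not. Pooled over libraries the difference was -15.3 percentage points, and 14 alternatives that kept its direction gave -32 to -8.07. It turned to 0.65 when barcodes were called from at least 10 UMIs of at least 10 reads each, a rule chosen after the values were seen. Against MD alone, the L5-Bcl6 share was higher in 2 libraries and lower in 2 (exact p = 0.625, adjusted p = 0.938). The L6-Syt6 share against LH alone was likewise higher in 2 and lower in 2 (exact p = 0.5, adjusted p = 0.857).

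L6-Syt6 is made up of clusters 0, 1 and 3 of the deposited clustering. Pooled over libraries, cluster 1 held 54.7% (42.7 to 66.2%) of the L6-Syt6 neurons with both barcodes, 42.6% (36.7 to 48.7%) of those with MD alone, 54.3% (45.7 to 62.8%) of those with LH alone and 28.1% (26.9 to 29.4%) of all L6-Syt6 neurons. The share with both barcodes was higher in 2 libraries and lower in 2 against either single-barcode group. These comparisons were chosen after the values were seen (exact sign-flip test, p = 1 against MD alone and p = 0.625 against LH alone, adjusted p = 1 for both over 6 added tests).

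MD and LH barcode counts were bounded by the limits and the upper cutoff, and what set their balance was not tested. In the unsorted neurons AI, DMS and BLA together held 100 to 176 UMIs, so the cutoff left little room for unequal MD and LH counts. MD counts ran from 116 to 611 UMIs with a median of 160, and LH counts from 104 to 498 with a median of 143. In unsorted mouse 1, the 4 neurons had 135, 138, 139 and 151 MD UMIs, and their LH counts ran from 113 to 150. The median MD counts were 141 in unsorted mouse 2, 149 in unsorted mouse 3 and 174 in the FAC-sorted library, and the median LH counts were 147, 128 and 151. The median log2 ratio of MD to LH UMIs was 0.18, 0.10 and 0.31 in unsorted mice 1 to 3 and 0.20 after sorting. MD was the higher count in 60 neurons, LH in 27, and 1 neuron had 321 UMIs of each. Counts were within 2-fold of each other in 69 neurons. These were 4 of 4, 7 of 7 and 10 of 12 in unsorted mice 1 to 3 and 48 of 65 after sorting. All 4 neurons in which LH exceeded MD by more than 2-fold were FAC-sorted, and 15 neurons had MD more than 2-fold above LH.

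Many counts lay close to the limits. LH was within 10% above its limit in 21 neurons and MD within 10% above its limit in 5. Just outside, 25 neurons had valid MD and an LH count from 93 UMIs up to the limit, and 11 had valid LH and 104 to 112 MD UMIs. The smallest excess belonged to an L2/3-Rorb and an L6-Syt6 neuron, each with 104 LH UMIs, and to an L6-Syt6 neuron with 116 MD UMIs. The largest belonged to 3 L6-Syt6 neurons with 373 and 308, 321 and 321, and 321 and 272 MD and LH UMIs. All 6 of these neurons were FAC-sorted.

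Reads behind the UMIs were counted for both barcodes. In neurons with both barcodes, the median reads of MD were 6926, 9969 and 9998 in unsorted mice 1 to 3 and 11124 after sorting. The median reads of LH were 6248, 9934, 8108 and 10273 in the same order. In neurons with MD alone, by contrast, the median LH reads were 49, 65 and 59 in unsorted mice 1 to 3 and 104 after sorting, beside 8793, 11984, 12089 and 12674 MD reads. In neurons with LH alone, the median MD reads were 63, 80, 109 and 155, beside 7257, 10812, 11820 and 11258 LH reads. The single-barcode neurons nevertheless held a median of 31, 34.5, 32 and 41 LH UMIs and of 33, 37, 45 and 53 MD UMIs, respectively. The read ranges overlapped between the groups: the lowest LH count was 251 reads in a neuron with both barcodes, and the highest was 6714 in a neuron with MD alone.

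In all 23 unsorted neurons with both barcodes, MD and LH were the barcodes with the most reads, and each held at least 10% of the reads of the neuron. The share of reads ran from 34.7 to 75.2% for MD and from 22.5 to 62.3% for LH. The lower cutoff of the unsorted libraries had removed cells with higher barcode UMI totals, so the libraries are not compared alike here. In the FAC-sorted library, MD and LH were the leading pair in 44 of 65 neurons, and each held at least 10% of the reads in 47. Over the 4 libraries that makes 70 of 88 neurons, of which 65 were L6-Syt6, 3 were L5-Bcl6 and 2 were L5-S100b. Of the single-barcode neurons, 47 of 281 with MD alone and 43 of 176 with LH alone also had at least 10% of reads from each of MD and LH, with one count under its limit.

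The other 18 neurons, all FAC-sorted, had MD or LH under 10% of their reads. Their totals of 719 to 1005 barcode UMIs lay above the cutoff of each unsorted library. Neurons with such totals could therefore not remain among the unsorted neurons. Of these 18, 10 were L6-Syt6, 3 were L2/3-Rorb, 2 were L5-S100b, and L2/3-Calb1, L6-Npy and L5-Bcl6 had 1 each. Among the 10 L6-Syt6 neurons, MD took 97.2 to 97.8% of reads in 5 and LH took 91.8 and 96.7% in 2. In the remaining 3, DMS took 85.2% in 1, DMS took 54.3% and MD 43.8% in another, and MD took 55.9% and DMS 43.4% in the last. The L2/3-Calb1 neuron, the L6-Npy neuron and the 3 L2/3-Rorb neurons had 487 to 595 DMS UMIs, 121 to 149 MD UMIs and 104 to 111 LH UMIs. DMS took 74.4 to 97.9% of their reads, MD 1.14 to 1.58% and LH 0.579 to 0.963%. The L2/3-Calb1 neuron, for example, had 52136 DMS reads, 605 MD reads and 342 LH reads. The 2 L5-S100b neurons among the 18 had DMS at 94.9 and 83.8% of reads. The other two L5-S100b neurons, with at least 10% of reads from each of MD and LH, had 45.3% DMS, 26.2% MD and 27.9% LH (FAC-sorted) and 2.20% DMS, 41.4% MD and 56.0% LH (unsorted mouse 3).

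The 4 L5-Bcl6 neurons were more mixed. The neuron of unsorted mouse 1 had 139 MD and 113 LH UMIs, with 6987 and 4102 reads. In the FAC-sorted library, 1 neuron had 138 and 129 UMIs with 9846 and 9894 reads, and 1 had 160 and 144 UMIs with 6716 and 6647 reads beside 8746 DMS reads. The last had 357 LH UMIs and 126 MD UMIs, but 25153 LH reads, 16463 DMS reads and only 471 MD reads.

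The neurons with the most unequal MD and LH UMI counts also had few reads of the lesser barcode. The 3 highest ratios of MD to LH UMIs were 5.06, 5.07 and 5.41, all in L6-Syt6 neurons, with 109, 110 and 113 LH UMIs beside 551, 558 and 611 MD UMIs. Their LH reads numbered 276, 307 and 302, beside 58763, 62628 and 55935 MD reads. The 3 lowest ratios were 0.259 and 0.291 in L6-Syt6 neurons and 0.353 in the L5-Bcl6 neuron with 471 MD reads. The 2 L6-Syt6 neurons had 563 and 556 MD reads beside 50603 and 48040 LH reads.

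Part of the UMIs were found with both MD and LH in the same neuron. A neuron had a median of 44 such UMIs if unsorted and 56 if FAC-sorted. That is 17.1 and 15.5% of all its UMIs with MD or LH, and over the unsorted mice the library medians averaged 17.6% ± 1.08 (SD, n = 3). If tags of 12 bases were drawn evenly and independently, the counts of a neuron would give a median of 0.00120 and 0.00198 such UMIs. In shared UMIs, 1 barcode usually held nearly all reads: of 4997 over the 88 neurons, 3913 or 78.3% had at least 10-fold more reads of one barcode than of the other. MD held more reads in 2814 and LH in 2032. In neurons with MD alone, 82.2% (median, unsorted) and 58.3% (FAC-sorted) of the LH UMIs were also MD UMIs. In neurons with LH alone, 77.8 and 40.7% of the MD UMIs were also LH UMIs. In neurons with both, 31.9 and 30.95% of LH UMIs and 29.4 and 25.4% of MD UMIs were shared between the 2 barcodes.

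When each UMI found with several barcodes was counted only for the barcode holding most of its reads, 35 of the 88 neurons kept both counts above the limits. These comprised 30 FAC-sorted neurons and 1, 2 and 2 from the unsorted mice, and 33 of them were L6-Syt6. The limits were set on counts that include shared UMIs, so this count is lower by construction. By reads alone, 74 of 88 neurons had at least 10 MD and at least 10 LH UMIs of at least 10 reads each, a limit chosen after the values were seen. This included 67 of 75 L6-Syt6 and 4 of 4 L5-Bcl6 neurons, and 0 of the 5 L2/3 and L6-Npy neurons. Over all excitatory neurons with a subtype, 251 met this limit, so it was not particular to the 88. The 4 L5-Bcl6 neurons include the one with only 471 MD reads.

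Further valid barcodes were common by count, but most AI and BLA UMIs were also found with another barcode, and whether shared UMIs arose during amplification was not tested. By count, 11 of 88 neurons had MD and LH as their sole valid barcodes, 12.5% (6.41 to 21.3%). This share was 34.8% without the FAC-sorted library, 90.9% of 11 neurons with thinned reads, 97.1% of 35 with shared UMIs counted only for the leading barcode, 100% of 15 with shared UMIs dropped and 59.0% of 251 with UMIs of at least 10 reads. AI was also valid in 11, DMS in 11, AI and DMS in 35, and all 5 barcodes in 20. All 20 neurons with 5 valid barcodes were FAC-sorted, and BLA was never valid without both AI and DMS. The neurons with no further barcode numbered 4 of 4, 2 of 7 and 2 of 12 in unsorted mice 1 to 3 and 3 of 65 after sorting. Of these 11 neurons, 10 were L6-Syt6 and 1 was L5-Bcl6. Of the 11 with AI, all were L6-Syt6. Of the 20 with all 5 barcodes, 14 were L6-Syt6, 2 were L2/3-Rorb, 2 were L5-S100b, 1 was L2/3-Calb1 and 1 was L6-Npy.

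The AI and BLA barcodes had few reads, whereas DMS varied widely. Of the 66 neurons with valid AI, 63 had under 2% of their reads from AI and 2 had at least 10%. These 2, named after their values were seen, were an L2/3-Rorb neuron with 172 AI UMIs and an L6-Syt6 neuron with 95. All 20 neurons with valid BLA had under 2% of their reads from BLA, with 50 to 87 BLA reads for 37 to 52 BLA UMIs. Of the 66 neurons with valid DMS, 27 had under 2% and 16 at least 10% of reads from DMS, the latter all FAC-sorted. The median share of AI UMIs that were also found with another barcode was 90% in the unsorted neurons and 81.6% in the FAC-sorted neurons, and that of BLA UMIs was 91.3 and 84.6%. For DMS it was 74.2 and 51.4%. Sharing was also common in single-barcode neurons. With MD alone the shares were 88.3 and 70.6% for AI, 88.9 and 75% for BLA and 68.8 and 36.1% for DMS. With LH alone they were 88.2 and 69.2%, 88.9 and 72.7%, and 67.3 and 34.5%. With shared UMIs counted only for the leading barcode, AI remained above its limit in 3 of the 88 neurons, DMS in 16 and BLA in 0.

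Over all neurons, AI and DMS were each valid in 75.0% of MD plus LH neurons. AI was valid in 29.8% of the 473 neurons with MD but not LH and in 14.2% of the 246 with LH but not MD, and DMS in 34.7 and 24.0%. AI was valid in 0%, 71.4% and 75.0% of the neurons of unsorted mice 1 to 3 and in 80.0% of the FAC-sorted neurons. The corresponding shares were 1.47, 19.6, 43.2 and 38.7% with MD without LH, and 3.23, 19.6, 17.8 and 17.05% with LH without MD. DMS was valid in 0%, 14.3%, 41.7% and 92.3% of the MD plus LH neurons. With MD without LH it was valid in 0%, 15.9%, 24.7% and 58.5%, and with LH without MD in 3.23%, 13.7%, 17.8% and 47.7%. With shared UMIs counted only for the leading barcode, AI was valid in 0 and DMS in 1 of the 35 neurons that then kept both MD and LH, under limits set on counts that include shared UMIs. With reads thinned to equal number per recovered cell and the limits kept, DMS was valid in 0 of 11 neurons. Its share then differed by -5.91 percentage points from MD without LH and by -8.40 from LH without MD. Fixed limits lower DMS calls after thinning by construction.

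Transcriptome depth did not move one way. The authors had removed cells with high gene or transcriptome counts as potential doublets, which truncates the depths compared, and the neurons with both barcodes reached 7971 detected genes. MD plus LH neurons had a median of 28257, 23226 and 24718 transcriptome UMIs in unsorted mice 1 to 3 and 38968 after sorting. Neurons with MD alone had 24782, 25180, 26419 and 36706, and neurons with LH alone had 24838, 25145, 26679 and 37289. Within L6-Syt6 the medians of the MD plus LH neurons were 1.28, 0.922, 0.918 and 1.07 times those of neurons with MD alone, and 1.25, 0.899, 0.884 and 1.05 times those of neurons with LH alone. Each comparison was higher in 2 libraries, unsorted mouse 1 and the FAC-sorted library, and lower in 2 (exact sign-flip test, p = 0.875 and p = 1, adjusted p = 1 for both). Unsorted mouse 1 entered with 3 L6-Syt6 neurons. The single-barcode groups again exclude neurons with further valid barcodes, and the MD plus LH group does not. Over all subtypes the result was the same in direction (exact p = 1, adjusted p = 1). Pooled over libraries, the log2 differences within L6-Syt6 were 0.38 and 0.39, and without the FAC-sorted library they were -0.037 and -0.066. The median percent of mitochondrial counts in L6-Syt6 neurons with both barcodes was 5.48, 5.90, 6.39 and 2.55%, beside 5.58, 5.59, 5.69 and 2.47% with MD alone, and was higher in 3 of 4 libraries (exact p = 0.375, adjusted p = 1 over the 6 added tests). Against LH alone it was also higher in 3 of 4 libraries, by a mean of 0.241 percentage points (exact sign-flip test, p = 0.25). Detected genes within L6-Syt6 were higher in 2 libraries and lower in 2 against either group (exact sign-flip test, p = 0.875 for both). The part of doublets in the barcode pairs was not tested.

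Of all cells with barcode counts, 766 had both MD and LH valid, of which 88 remained among the annotated excitatory neurons. The study removed cells above the 95th percentile of summed barcode UMIs, which lay at 404, 486 and 529 UMIs in the unsorted libraries and at 1012 in the FAC-sorted library. A cell that passes both limits has at least 219 UMIs, so the cutoff left less room for higher counts in the unsorted libraries than after sorting. This step accounted for 569 of 592 such cells in the unsorted libraries, or 96.1%, and for 59.2% of 174 in the FAC-sorted library. The 20 neurons with all 5 barcodes had 677 to 1005 barcode UMIs, a range above the cutoff of each unsorted library. Between libraries, 82 cell barcodes recurred, among them that of 1 of the 88 neurons, which had at most 12 virus barcode UMIs in the other library.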

How the data were processed

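Transcriptome reads were aligned by the authors to mm10 with added virus barcodes with Cell Ranger, per the submitters' processing notes and the study's methods. The authors deposited barcode UMI counts per cell, read tables with cell barcode, UMI and virus barcode read, and annotation tables with subtype, transcriptome counts of UMIs and genes, and percent of mitochondrial counts. They removed the top 5% of cells by barcode UMIs and cells with high gene or transcriptome counts, and no doublet caller was run here. A further 23 columns of the annotation tables were not used.

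Here, reads were matched to the 5 barcodes of 15 bases with at most 2 mismatches and collapsed to counts per cell, UMI and barcode. The recount equalled the deposited counts in the 88 neurons. Elsewhere it differed only where it held 1 UMI while the deposited value was 0. The lowest valid counts, read from the annotation, were 29 (AI), 102 (DMS), 115 (MD), 36 (BLA) and 104 (LH) UMIs, and calls at these limits equalled the annotation in 100% of cases. Barcode reads numbered 20443286, 30613665 and 32895529 in the unsorted libraries and 30272582 in the FAC-sorted library.

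Groups were compared within libraries holding at least 3 neurons of each, with library differences tested by exact two-sided sign flips and Benjamini-Hochberg adjustment over 12 tests. The 4 of them on AI and DMS calls are not reported, since those calls share UMIs with the counts that chose the neurons. Cells were not treated as replicates. Intervals are exact binomial at 95%, and a count of 0 is given with a limit of 3 counts. They cover counting error only. Single neurons were named when among the 3 highest or lowest in excess over the limits or in MD to LH ratio, or in a subtype with 5 or fewer of the neurons. Members and lists were chosen with earlier results of these data known. Python 3, numpy, pandas and scipy were used, and the code was checked on made-up data with known answers. Alternatives varied UMI counting, limits, read depth, libraries and high transcriptome counts.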

Additional observations from a re-analysis of the deposited data

Results flagged for a closer look

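Cells that carried both barcodes but had no excitatory subtype annotation were examined because they lie outside the comparisons above. There were 678 of them. Of these, 672 lay above the cutoff that removes the top 5% of each library by barcode UMIs. The cells above it had a median of 1302.5 barcode UMIs, 234.5 MD UMIs and 180 LH UMIs, and 532 of them had all 5 barcodes valid. At least 10 MD and at least 10 LH UMIs of at least 10 reads each were present in 210 of the 678. The same limit was met for DMS by 641, for MD by 459, for LH by 236, for AI by 123 and for BLA by 50. Their cell types were not analysed here. No group held 4 to 10 libraries, so no library was screened as standing apart from its group.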

How the results depend on the processing

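The number of neurons with both barcodes depended on how UMIs were counted and where limits lay. It was 6 with UMIs of at least 2 reads, 35 with shared UMIs counted only for the leading barcode and 15 with shared UMIs dropped. It was 11 after thinning to equal reads per cell, 210 with limits times 0.75 and 17 with limits times 1.5. Limits at the top 0.1% of non-neuronal cells gave 627. UMIs of at least 10 reads with limits of 10 UMIs, an alternative chosen after seeing the data, gave 251. With the highest barcode counts kept, 766 cells of any type had both barcodes, of which 88 were annotated as excitatory neurons. The 766 are therefore not a count of neurons. Leaving out 1 library gave 23 (without the FAC-sorted library) to 84.

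The remaining values are differences over all neurons, in percentage points for shares and log2 for transcriptome UMIs. With UMIs of at least 2 reads, L6-Syt6 against MD alone was 1.67, L5-Bcl6 against MD alone -1.67, AI against MD without LH -1.41, the log2 MD to LH ratio 0.39 and the shared UMI share 30.0%. With shared UMIs given to the leading barcode, DMS was -0.62 against MD without LH and -0.80 against LH without MD, AI was -0.23 and -0.41 (DMS valid in 1 and AI in 0 of the 35 neurons, near the floor), the share without further barcode 97.1% and the log2 ratio 0.089. With shared UMIs dropped, L6-Syt6 and L5-Bcl6 against MD alone were 1.14 and -1.14, DMS -2.94 and -3.12, AI -0.37 and -0.78, and the share without further barcode 100%. With at least 10 reads, L5-Bcl6 against LH alone was 0.65, AI -1.75 and -0.86, the share without further barcode 59.0%, the log2 ratio -0.067 and the shared UMI share 0%. L6-Syt6 against LH alone was -10.1 with limits times 0.75 and -19.9 with non-neuronal limits, where the shared share was 17.3 and 17.9% and, with the latter, the log2 ratio 0.70. L5-Bcl6 against MD alone was -0.95 with limits times 1.5. With thinned reads, transcriptome UMIs against MD alone were -0.044, DMS -5.91 and -8.40, the share without further barcode 90.9% and the shared share 17.7%. Averaged over libraries with equal weight, the shared share was 17.1%.

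Leaving out 1 library moved transcriptome UMIs from -0.037 to 0.39 (MD alone), -0.020 to 0.49 (LH alone), and within L6-Syt6 from -0.037 to 0.44 and -0.066 to 0.46, the negative values being those without the FAC-sorted library. The shared share ran from 15.8 to 17.1%. Apart from the counts that shared UMIs change by construction, the cause was not tested. Shared shares could not be computed with shared UMIs reassigned or dropped, and an equal-weight mean was not computed for the number of neurons. The tests of neuron groups used differences within each library, whereas the values here pool libraries, except the mean with equal weight. Between unsorted and FAC-sorted libraries, no paired analysis was possible because they come from different mice. Library number and depth limit the comparisons.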
